A study of Homo sapiens with 12 samples.

Results

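This report describes the transcriptome of parental 786-O cells, the unmodified cells of a human clear cell renal cell carcinoma line, as 3 of the 12 libraries of the series measured it. The members were the 3 libraries labelled as parental control, and no difference between groups was tested. For each of 62702 genes the CPM (counts per 1000000 counts of its library) were averaged over the 3 libraries and ranked, so that rank 1 is the highest gene. Values after ± are SDs over n = 3 libraries throughout, and where 3 values are given they are those of replicates 1 to 3 in that order.

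Clear cell renal cell carcinoma arises from the kidney tubule and in most tumours has lost VHL, the substrate receptor of a ubiquitin ligase. With oxygen present, prolyl hydroxylases of the EGLN family mark the alpha subunits of the hypoxia-inducible factors (HIF), VHL binds the marked protein, and it is destroyed; without VHL the alpha subunits stay, pair with ARNT and activate genes of glucose uptake, vessel growth and lipid storage. The 786-O line carries no working VHL protein and is widely used because its HIF activity comes from HIF2A, the product of EPAS1, rather than from HIF1A.

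The series also holds 3 libraries each of 786-O lines with inducible shRNAs. The targets were HIF2A in shHIF2A, the 3 JUN genes JUN, JUNB and JUND in shJUNs, and both YAP and TAZ in shYAPTAZ. These 9 libraries were used only to ask whether a gene silent in parental cells was counted elsewhere. All 12 libraries, the parental ones included, came from cells given doxycycline for 72 hours in RPMI 1640 with fetal bovine serum. The parental cells carried no shRNA as far as the labels say, and the derived lines had been selected with puromycin, blasticidin or hygromycin. The labels call the 3 parental libraries technical replicates of 1 line, so the SDs do not measure how separately derived 786-O cultures differ.

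RNA was measured by BRB-seq, which barcodes and sequences the 3′ ends of polyadenylated RNA. Because reads come from one end, a CPM value is close to a share of transcripts and was not divided by gene length; the order per kilobase of exon is given where it differs. Parental replicates 1 to 3 held 2885287, 3603339 and 3559731 counts, and 15526 to 15989 genes had at least 1 count in a library. A single count equals 0.278 to 0.347 CPM in a library, and a gene with no count in the 3 libraries could have a level of up to 0.299 CPM, the value of 3 counts in the 10048357 counts of all 3. The technical replicates differed by more than counting error. Chi-squared over its degrees of freedom, for genes of 20 counts or more in a pair, was 9.64 between replicates 1 and 2, 13.1 between replicates 1 and 3, and 5.40 between replicates 2 and 3. Replicate 1 stood farthest from the others, and its means are given with and without it where that matters.

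A gene was called expressed at a mean of at least 1 CPM with a count in every library and more than 3 counts in all, silent with at most 3 counts in the 3 libraries together, and trace otherwise. Of the 62702 genes, 12603 were expressed, 2881 were trace and 47218 were silent, 43766 of them without a single count. Of 19855 protein-coding genes, 10954 (55.2%) were expressed and 7819 (39.4%) were silent. Such shares over all protein-coding genes are the yardstick for every gene list below, also where they are not repeated. A total of 1788 genes reached 100 CPM and 115 reached 1000 CPM, and the 100 highest genes of a library took 32.4%, 31.5% and 30.6% of its counts.

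Silence in these counts needs a caution that the deposited exon coordinates make visible. Among protein-coding genes whose last 1000 exonic bases overlapped another gene on the same strand by more than 50%, 83.0% of 1103 were silent, against 38.9% of 15167 genes with no overlap there. An overlap on the opposite strand alone went with 25.8% silent genes of 2878. The glycolytic enzyme aldolase A (ALDOA), for example, had 5 counts in all and 75.7% of the last 1000 exonic bases shared with a same-strand gene. Genes with such an end are marked as shared below, and their low counts are not read as low expression. Transcripts that end outside the annotated exons would also be missed, and how often that happened was not tested.

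The highest gene was the mitochondrial ribosomal RNA MT-RNR2, at 37116 ± 3541 CPM, and the second was VIM, which encodes the mesenchymal intermediate filament protein vimentin. VIM (ENSG00000026025, chromosome 10, 17228241 to 17237593, hg38) had 16810.5, 14372 and 13297 CPM, a mean of 14826 ± 1800.2 CPM. Other nuclear genes among the 15 highest were RPL30, of a ribosomal protein, at 8885 ± 571 CPM, FTL, the ferritin light chain, at 7648 ± 1146 CPM and TMSB10, an actin-binding thymosin, at 6880.3 ± 523 CPM. The 15 also included the mitochondrial MT-CO3 (11139 ± 414 CPM), MT-CO2 (6036 ± 453 CPM) and MT-ND4 (5347 ± 445 CPM), the poly(A)-binding protein gene PABPC1 (4964 ± 118 CPM), and the ribosomal protein genes RPLP1, RPL37, RPL31, RPL7A and RPL37A, between 4566 and 5477 CPM. Transcripts of the mitochondrial genome took 7.28% ± 0.365 of the counts and cytosolic ribosomal protein genes 14.7% ± 0.480. Ferritin, ribosomal protein, actin and GAPDH genes have many near-identical copies in the genome, and the sources used here do not say how reads shared among copies were treated.

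**Figure D1:**
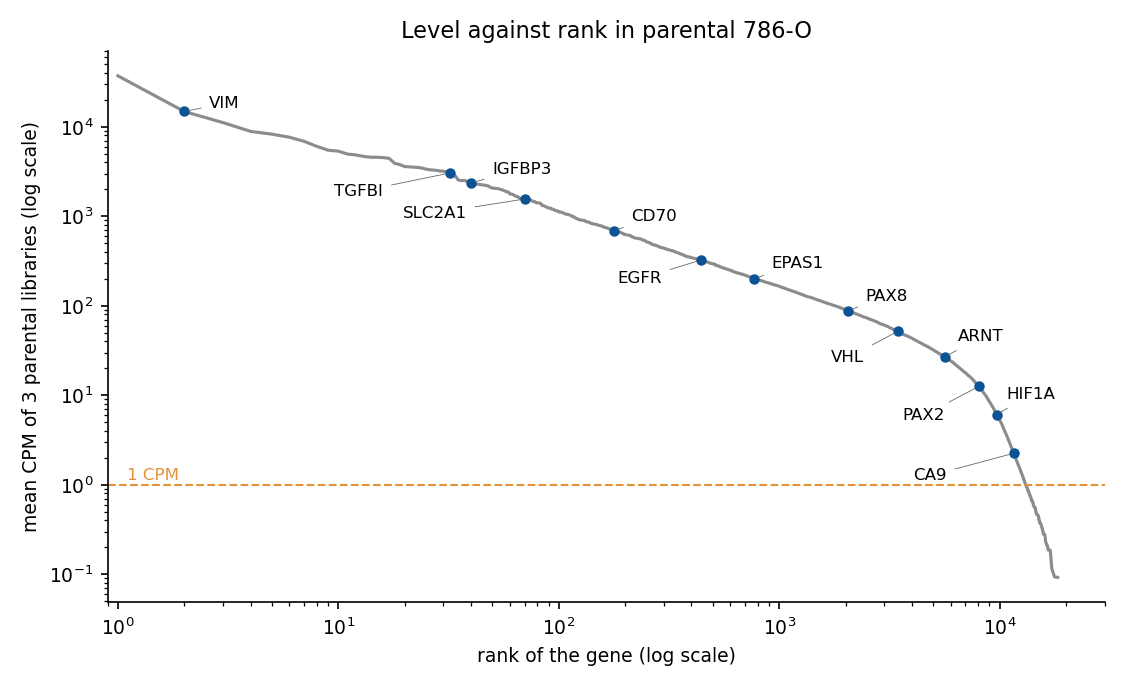
Mean CPM of each gene over the 3 parental libraries against its rank, both on log scales, with 13 genes labelled and the 1 CPM threshold dashed. VIM stands second at 14826 CPM, EPAS1 is at rank 772 and the HIF1A gene lies at rank 9710, near the steep end of the curve.

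Kidney lineage transcription factors were present as a subset. Of 28 nephron transcription factors, 13 (46.4%) were expressed, 4 were trace and 11 (39.3%) were silent. Among all protein-coding genes 55.2% were expressed and 39.4% silent, so the list as a whole did not stand out. PAX8, the paired-box factor by which pathologists recognise renal tumours (ENSG00000125618, chromosome 2, 113215997 to 113278921), had 79, 92.4 and 93 CPM. LHX1, a LIM-homeodomain factor needed for kidney formation (ENSG00000273706, chromosome 17, 36936785 to 36944612), had 90.1, 89.9 and 83.2 CPM. PAX8 and LHX1 were close in level, with overlapping libraries.

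The next factors were several times lower. SALL1, a zinc-finger factor of nephron progenitors, averaged 16.9 ± 1.52 CPM, IRX3 15.4 ± 5.3 CPM, MECOM 14 ± 5.75 CPM and PAX2, the partner of PAX8 in the nephric duct, 12.6 ± 6.0 CPM. HNF4G averaged 12.4 ± 1.18 CPM, whereas its paralog HNF4A, a master factor of the proximal tubule, had no count. The progenitor factors SIX2 and CITED1 and the distal factors IRX1 and FOXI1 also had no count, although CITED1 has a shared 3′ end. GATA3, a collecting duct factor, had no parental count either, yet 165 counts in the 9 libraries of the derived lines. WT1, the podocyte factor, was low and uneven at 14.2, 6.38 and 3.37 CPM.

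Proximal tubule genes were partly expressed. Of 38, 15 (39.5%) were expressed, 5 trace and 18 (47.4%) silent, beside 55.2% expressed and 39.4% silent among all protein-coding genes. The expressed ones were led by DPP4, a brush-border peptidase, at 124, 96 and 91 CPM, then CDH6, the cadherin of proximal tubule precursors, at 77.6, 67.2 and 80.1 CPM, SLC4A4, the basolateral sodium bicarbonate cotransporter, at 60.3, 73 and 43.8 CPM, and HAVCR1, the injury marker KIM-1, at 34.7, 64.7 and 62.6 CPM. The peptidases ENPEP (44.3 ± 7.4 CPM), ANPEP (17.9 ± 3.76 CPM) and MME (9.95 ± 2.13 CPM) and the scaffold PDZK1 (44.2 ± 9.51 CPM) were also expressed and were picked after their values were seen.

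Many transport and uptake genes of the same cell were at or near 0, but not all. LRP2 (megalin), the endocytic receptor of the brush border, had no count, and CUBN (cubilin), its partner, had 1. The phosphate transporters SLC34A1 and SLC34A3 had 2 and 0 counts. Glucose transporter SLC5A1, organic anion transporters SLC22A6, SLC22A8 and SLC22A12, and the amino acid transporters SLC7A9 and SLC6A19 had none. Low but expressed were SLC5A2, the glucose transporter SGLT2, at 2.08, 4.44 and 1.12 CPM, the water channel AQP1 at 6.59, 6.38 and 7.87 CPM and the dicarboxylate transporter SLC13A3 at 13.9, 1.11 and 2.53 CPM, mainly from replicate 1, beside SLC4A4 above; SLC5A2, AQP1 and SLC13A3 were named after their values were seen. FBP1 and G6PC1, enzymes of glucose production in this segment, had no count. Their ends are not shared with another same-strand gene, except that the peptidase gene GGT1, also at 0, has a shared end.

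Later segments were quieter still. Of 20 genes of the loop of Henle and distal tubule, 2 were expressed and 17 silent. The kinase gene WNK1, which many tissues express, averaged 105 ± 8.08 CPM and EGF 2.74 ± 0.649 CPM. UMOD (uromodulin) and the salt transporters SLC12A1 and SLC12A3 had no count and the claudin CLDN16 had 1. Of 20 collecting duct genes, 5 were expressed, all below 10 CPM, led by KRT19 at 8.32, 8.6 and 6.46 CPM, AQP4 at 1.74 ± 0.621 CPM, SLC26A4 at 1.3 ± 0.695 CPM and KRT7 at 1.25 ± 0.77 CPM, and 13 were silent, among them the water channels AQP2 and AQP3 and the sodium channel subunits SCNN1B and SCNN1G. In the list of podocyte and parietal epithelium genes 7 of 15 were expressed: CD24 was at 1581 ± 221 CPM (rank 68), ALDH1A1 at 449 ± 52.8 CPM, SYNPO, an actin-associated protein, at 342 ± 74 CPM and CLDN1 at 84.4 ± 9.16 CPM. The slit diaphragm gene NPHS1, a podocyte marker, had no count, PTPRO had 1 and CLIC5 had none. The podocyte genes WT1, at 7.99 ± 5.59 CPM, and PODXL, at 4.74 ± 1.97 CPM, were low but expressed.

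Of a list of 25 markers of clear cell renal carcinoma, 23 were expressed and 2 silent, or 92.0% against 55.2% of all protein-coding genes. The list was chosen with earlier results of these data known, so this share is not an independent check of the label. After VIM the list was led by CAV1 (caveolin-1) at 794, 851 and 812 CPM, CD70, the TNF-family ligand of CD27, at 654, 701 and 706 CPM, and PLIN2, the coat protein of lipid droplets, at 988, 499.8 and 360.1 CPM. CAV1 and CD70 varied little, while PLIN2 was far higher in replicate 1 than in replicate 3. The 2 silent markers were ENPP3, with 3 counts, and SCGN, with none and a shared end. CA9, the membrane carbonic anhydrase often used to stain this tumour, was among the lowest at 23 counts in all and 1.73, 3.05 and 1.97 CPM, and NDUFA4L2, another common marker, had 19.4, 15.5 and 17.7 CPM.

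Markers of other cell types were mostly silent, though unevenly between lists. Of 83 genes in 6 such lists, 14 (16.9%) were expressed and 61 (73.5%) silent, beside 55.2% and 39.4% of all protein-coding genes. The silent share was 88.9% in the blood list and 87.5% in the endothelial list. It was 50% in both the muscle and the neural list, nearer the share of all protein-coding genes, with 33.3% and 25% expressed. In the blood list PTPRC, CD3E, CD3D and CD4 had no count, and the 18 blood genes summed to 3.47, 0.833 and 1.40 CPM. CD68, which has a shared 3′ end, was the only blood gene called expressed, at 2.08, 0.555 and 0.843 CPM. HBB was trace at 0.626 CPM. In the endothelial list PECAM1, CDH5 and KDR had no count and VWF had 3; EGFL7, at 32.7 ± 3.23 CPM, was the only endothelial gene called expressed. Some genes with another cell type's name were plain: KRT10 at 477 ± 58 CPM, NEFL, the light neurofilament, at 159, 286 and 318 CPM, SERPINA1 (alpha-1-antitrypsin) at 74.3 ± 8.44 CPM and MBP at 63.6 ± 14.1 CPM. Other members of the same lists were low or silent. KRT5, KRT14 and KRT1 had 1, 0 and 0 counts, NEFM and OLIG2 had none, and APOA1, APOA2 and TTR had none, whereas KRT15 at 8.89 ± 5.51 CPM, SYT1 at 5.47 ± 1.22 CPM and AFP at 1.82 ± 1.39 CPM were expressed. Smooth muscle genes were low, with ACTA2 at 19.9 ± 5.64 CPM, RGS5 at 7.03 ± 3.3 CPM and KCNJ8 at 2.27 ± 1.17 CPM. TAGLN had 4.55 ± 0.876 CPM, but its 3′ end is shared, so its level is not read as low. Since these are bulk libraries, a low level in all cells and a high level in a few cannot be told apart.

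**Figure D2:**
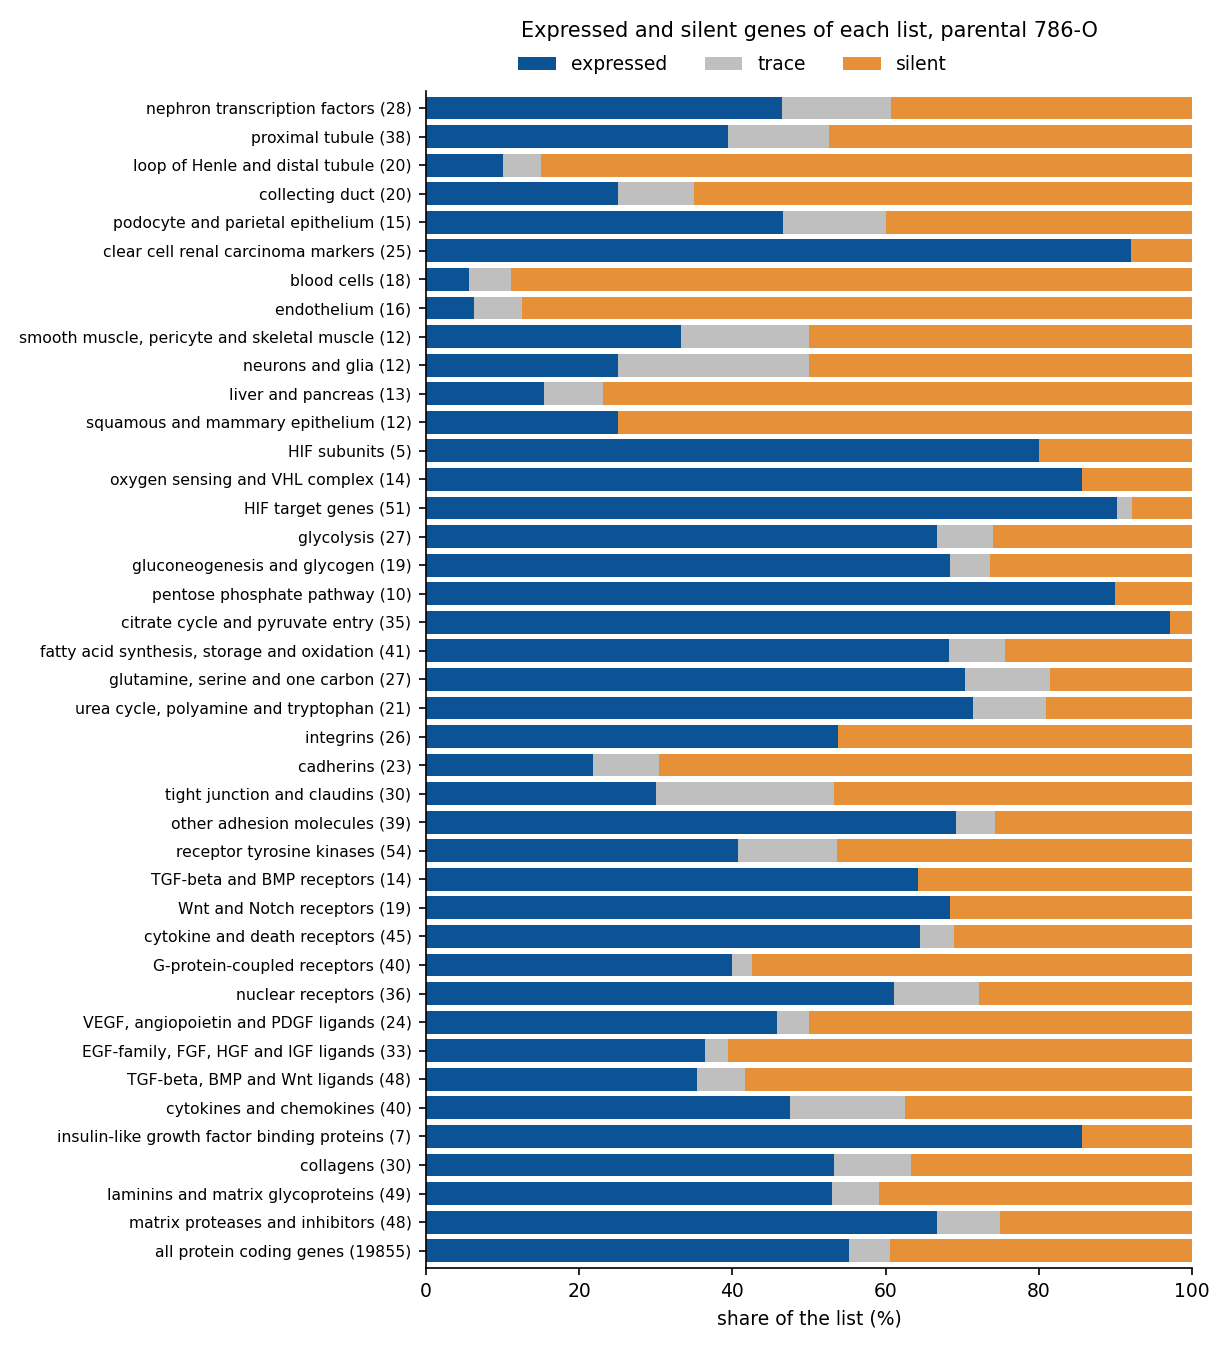
Share of each gene list that was expressed, trace or silent in the parental libraries, with the number of genes in brackets and all protein-coding genes at the bottom. The citrate cycle, clear cell carcinoma, HIF target and pentose phosphate lists have the largest expressed shares, 90.2% in the HIF target list, and blood and endothelial lists are at least 87.5% silent.

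Among the HIF alpha subunits EPAS1 mRNA was far above the others. EPAS1 (ENSG00000116016, chromosome 2, 46293667 to 46386697) had 265, 192 and 147 CPM, a mean of 201 ± 59.2 CPM at rank 772. HIF1A (ENSG00000100644, chromosome 14, 61695513 to 61748259) had 4.85, 4.72 and 8.71 CPM, from 62 counts in all, and HIF3A had 2 counts. EPAS1 thus held 96.6% ± 2.10 of the CPM of the 3 alpha subunit genes, and it also led per kilobase of exon, at 27.6 CPM per kb for EPAS1 and 1.18 for HIF1A. The 9 libraries of the derived lines held 1465 HIF1A counts. Of the constant partners, ARNT had 25.6, 29.1 and 25.6 CPM and its paralog ARNT2 19.1, 18 and 6.46 CPM.

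The genes of oxygen sensing were largely present. Of 14, 12 were expressed. VHL transcripts were counted at 56.8, 47.2 and 51.4 CPM (ENSG00000134086, chromosome 3, 10141778 to 10153667), a level of mRNA that says nothing of the protein. The other subunits of its ligase were higher: ELOC 385 ± 16.2 CPM, ELOB 331 ± 44.5 CPM and RBX1 212 ± 47 CPM, with the scaffold CUL2 at 57.6 ± 4.41 CPM. EGLN3, a prolyl hydroxylase that is itself a HIF target, had 235, 139.9 and 107 CPM and HIF1AN, the asparaginyl hydroxylase, 39.5, 34.4 and 49.2 CPM. EGLN1 and EGLN2 had no count, but both ends are shared, with 95.4% and 67.8% of the last 1000 exonic bases under another same-strand gene, so these counts do not show which hydroxylase was most expressed. The collagen hydroxylases were also in the list: their common subunit P4HB was at 959 ± 131 CPM, P4HA2 at 254 ± 51.4 CPM and P4HA1 at 212 ± 45.2 CPM, and P4HA1 was the higher of the pair per kilobase.

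Nearly all listed HIF target genes were expressed. Of 51, 46 (90.2%) were expressed, 1 was trace and 4 were silent, and 21 (41.2%) reached 100 CPM. Among all protein-coding genes 55.2% were expressed and 8.83% reached 100 CPM. The list was chosen with earlier results of these data known, so these shares are descriptions only. The highest included IGFBP3, a binding protein for insulin-like growth factors, at 3429, 1983 and 1687 CPM, DDIT4, an inhibitor of mTORC1, at 2149.9, 1578 and 1401 CPM, and SLC2A1, the glucose transporter GLUT1, at 1779, 1585 and 1314 CPM. Replicate 1 was the highest library for all 3. Below them stood CCND1 (cyclin D1) at 717 ± 218 CPM, TGFA at 394 ± 161 CPM, VEGFA at 313 ± 125 CPM, CA12 at 280.4 ± 105 CPM and ADM (adrenomedullin) at 232 ± 129 CPM, which were named after their values were seen. The silent targets were EPO, with no count, NOS3 and COX4I2, also with none, and EGLN1 with its shared end. Targets at the low end included CA9 at 2.25 ± 0.704 CPM, CXCR4 at 1.65 ± 0.975 CPM, LOX at 2.32 ± 0.865 CPM and the aldolase ALDOC at 1.34 ± 1.84 CPM.

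**Figure D3:**
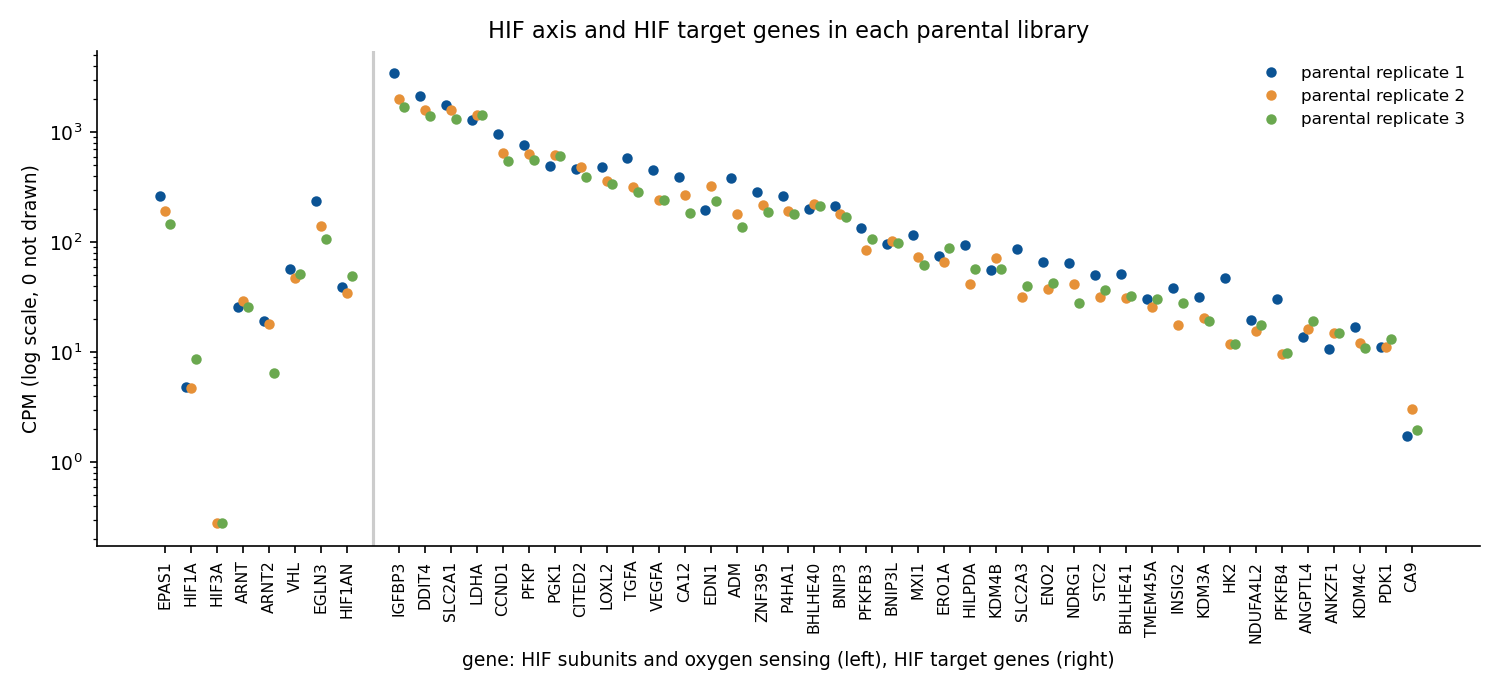
CPM of 8 genes of the HIF axis (left) and of 40 HIF target genes (right, CA9 and others of at least 10 CPM) in each parental library, on a log scale. Only the target genes are ordered by mean. The EPAS1 points lie between 147 and 265 CPM and the HIF1A points between 4.72 and 8.71 CPM; for most targets the replicate 1 point is uppermost.

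The promoter windows of 2 paralog pairs are shown because one member of each was high and the other low or silent, 250 bases before to 50 after the start as RefSeq annotates it on GRCh38.p14, 5′ to 3′ on the gene's strand, with every CpG in capitals. SLC2A1 lies at chr1:42958819-42959118, minus strand, SLC2A2, the liver and islet glucose transporter GLUT2, at chr3:171026671-171026970, minus strand, CA12 at chr15:63381797-63382096, minus strand, and CA9 at chr9:35673678-35673977, plus strand.
SLC2A1: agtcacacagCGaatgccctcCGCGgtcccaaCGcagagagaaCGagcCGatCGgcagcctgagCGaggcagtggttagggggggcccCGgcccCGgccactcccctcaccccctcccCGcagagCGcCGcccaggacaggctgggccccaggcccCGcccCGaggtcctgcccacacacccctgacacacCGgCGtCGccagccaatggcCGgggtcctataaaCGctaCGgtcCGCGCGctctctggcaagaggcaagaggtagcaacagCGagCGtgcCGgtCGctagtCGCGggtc
SLC2A2: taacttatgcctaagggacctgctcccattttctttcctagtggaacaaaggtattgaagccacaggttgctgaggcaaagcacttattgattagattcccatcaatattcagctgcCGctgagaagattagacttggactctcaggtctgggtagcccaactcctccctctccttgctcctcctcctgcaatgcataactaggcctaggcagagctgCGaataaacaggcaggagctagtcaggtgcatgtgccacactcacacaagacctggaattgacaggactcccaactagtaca
CA12: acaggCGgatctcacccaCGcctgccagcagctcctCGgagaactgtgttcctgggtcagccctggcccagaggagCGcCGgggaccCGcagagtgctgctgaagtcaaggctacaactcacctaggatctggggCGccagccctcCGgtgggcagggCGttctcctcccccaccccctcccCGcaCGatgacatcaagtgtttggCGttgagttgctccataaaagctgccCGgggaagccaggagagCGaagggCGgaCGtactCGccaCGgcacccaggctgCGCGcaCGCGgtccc
CA9: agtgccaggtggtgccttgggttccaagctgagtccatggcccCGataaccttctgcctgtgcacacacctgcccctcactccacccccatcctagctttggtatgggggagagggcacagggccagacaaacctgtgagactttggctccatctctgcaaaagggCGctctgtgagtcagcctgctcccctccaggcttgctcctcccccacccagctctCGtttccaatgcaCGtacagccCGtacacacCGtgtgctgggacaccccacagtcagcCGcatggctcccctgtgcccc

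The SLC2A1 window holds 30 CpGs and that of SLC2A2 holds 2, and the CA12 window holds 22 and that of CA9 holds 7, where the median of 22114 RefSeq promoters of this length is 12. The core of a hypoxia response element, ACGTG or GCGTG on either strand, with a palindromic CACGTG counted on both, was found 1 time in the SLC2A1 window, 2 times in CA12, 1 time in CA9 and not in SLC2A2. At least 1 such core stands in 47.3% of the 22114 promoters. The CA9 core begins 18 bases before the start. RefSeq promoters were at hand for 57.0% of protein-coding genes and 47.1% of the HIF targets, too few for a comparison of CpG content or cores between expressed and silent genes, so none was made.

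At most steps of glucose entry and glycolysis a single paralog held most of the transcripts counted. The aldolase step could not be assigned, because the end of ALDOA is shared. SLC2A1 held 92.0% ± 1.27 of the CPM of 14 glucose transporter genes. SLC2A3 (GLUT3), the second, had 87.3, 31.6 and 39.6 CPM, and SLC2A2, SLC2A7, SLC2A9 and SLC2A14 were silent, though SLC2A14 is a near copy of SLC2A3 and reads of the pair may be split. Of 27 glycolysis genes 18 (66.7%) were expressed and 10 (37.0%) reached 100 CPM, beside 55.2% and 8.83% of all protein-coding genes. GAPDH had 2325, 2489.6 and 2269 CPM, LDHA, the lactate dehydrogenase subunit of fermenting cells, 1285, 1444 and 1431 CPM, ENO1 (enolase 1) 1139, 1285 and 1536 CPM and PKM, the pyruvate kinase of most tissues, 964, 1468 and 1381 CPM.

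At the committed step PFKP took 81.2% ± 2.15 of phosphofructokinase CPM with 650.1 ± 102 CPM, ahead of PFKL at 107 ± 6.25 CPM and PFKM at 41.6 ± 3.95 CPM. The hexokinases were an exception to single leaders: HKDC1, a hexokinase-like gene, averaged 94.2 ± 7.46 CPM, HK1 70.2 ± 6.36 CPM and HK2 47.1, 11.9 and 11.8 CPM in replicates 1 to 3, so that HK2 came mainly from replicate 1. HK3, GAPDHS and PGAM2 had no count, PGK2 had 1 and PKLR had none. LDHA held 82.7% ± 2.45 of lactate dehydrogenase CPM, and LDHB, with a partly shared end, 292 ± 63.2 CPM. The lactate exporters SLC16A3 (MCT4) and SLC16A1 (MCT1) were close, at 205, 189 and 214 and 194, 151 and 169 CPM, with overlapping libraries, and SLC16A1 was the higher per kilobase.

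Gluconeogenesis and glycogen genes were lower, with 13 of 19 expressed and 1 at 100 CPM or more. PGM1 led at 125 ± 25.4 CPM, followed by UGP2 at 80.9 ± 11.5 CPM, the glycogen phosphorylase PYGL at 79.7 ± 13.8 CPM and PCK2, the mitochondrial PEP carboxykinase, at 77.5 ± 12.5 CPM. Its cytosolic paralog PCK1 had 9 counts, all in replicate 1. Both fructose bisphosphatases, FBP1 and FBP2, were at 0, so the enzyme that opposes phosphofructokinase was not detected in either form; G6PC1 was at 0 as well. In the pentose phosphate pathway 9 of 10 genes were expressed, led by the transketolase TKT at 1099, 838 and 648 CPM, TALDO1 (transaldolase) at 366 ± 72.4 CPM, PGLS at 138 ± 7.76 CPM and PGD at 97.3 ± 25.1 CPM, and only TKTL1 was silent.

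The citrate cycle list had the largest expressed share of the 40 lists: 34 of 35 genes were expressed, 33 at 10 CPM or more. MDH2 and MDH1, the mitochondrial and cytosolic malate dehydrogenases, averaged 471 ± 15.1 and 356 ± 9.61 CPM, MPC2, of the pyruvate carrier, 230.2 ± 16.2 CPM and IDH2 209 ± 38.8 CPM. ME3 was the silent member. The 4 pyruvate dehydrogenase kinases, which hold pyruvate back from the cycle, were low, with PDK2 at 23.8 ± 6.36 CPM, PDK3 at 15 ± 5.28 CPM, PDK1, a HIF target, at 11.1, 11.1 and 13.2 CPM and PDK4 at 2.14 ± 0.651 CPM.

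In fatty acid metabolism 28 of 41 genes (68.3%) were expressed, beside 55.2% of all protein-coding genes. SCD, the stearoyl-CoA desaturase, had 554, 636 and 684 CPM and its paralog SCD5 1 count. PLIN2 followed at 616 ± 329.5 CPM, then FADS1 at 338 ± 66.1 CPM and PLIN3 at 270.3 ± 25.2 CPM. Droplet proteins of fat and muscle cells were absent or nearly so, with PLIN1 at 1.23 ± 0.459 CPM, no count of PLIN4 and 1 of PLIN5. Carnitine palmitoyltransferase 1, which admits long fatty acids to the mitochondrion, was low in all forms: CPT1A had 1.73, 1.94 and 1.12 CPM and CPT1C no count, and CPT1B, at 0, has a shared end. CPT2 was at 28.3 ± 11.2 CPM. The 10 silent genes of the list also included ACSL5 and ACSL6, with 2 and 0 counts.

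Amino acid genes included some of the highest metabolic transcripts. SLC7A5, the large neutral amino acid transporter, had 1081, 1158 and 1249.5 CPM. MTHFD2, of mitochondrial one-carbon metabolism, had 719, 645 and 647 CPM, and PSAT1, of serine synthesis, 357, 498 and 499.8 CPM. GLUL (glutamine synthetase) had 2 counts, without a shared end, and PHGDH, the first enzyme of serine synthesis, had 4, also without one, while the third enzyme, PSPH, was at 85.3 ± 6.13 CPM. ASNS had 9 counts, but 98.9% of its end is shared. GLUL, PHGDH, PSPH and ASNS were named after their values were seen. Of 21 genes of the urea cycle, polyamines and tryptophan, 15 were expressed, led by SMS (spermine synthase) at 454 ± 34.5 CPM, NNMT, the nicotinamide methyltransferase, at 385 ± 24.1 CPM, AZIN1 at 198 ± 6.43 CPM and NAMPT at 83.6 ± 11.6 CPM. ASS1, the urea cycle enzyme argininosuccinate synthase, was at 2.16 ± 0.39 CPM, and OTC, ARG1, IDO1 and IDO2 had no count.

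Among the adhesion genes, cadherin transcripts came mostly from a single gene. CDH2 (N-cadherin, ENSG00000170558, chromosome 18, 27932879 to 28177946) had 216, 276 and 290.5 CPM and CDH6 77.6, 67.2 and 80.1 CPM, and CDH2 held 76.5% ± 3.83 of the CPM of 18 classical cadherin genes. CDH1 (E-cadherin) had 1 count in 10048357. Of 23 cadherins 5 were expressed and 16 silent, the other 3 expressed being CDH16, the kidney-specific cadherin, at 5.05 ± 2.86 CPM, CDH13 at 3.43 ± 0.886 CPM and CDH24 at 3.07 ± 2.44 CPM. CDH3, CDH4 and CDH5 had no count.

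Claudins and other tight junction genes were expressed in 9 of 30 cases. The scaffold TJP1 (ZO-1) averaged 99.6 ± 17.4 CPM, CLDN4 85.3, 99.4 and 108 CPM, CLDN1 79.7, 78.5 and 95 CPM and F11R 68.6 ± 1.44 CPM. CLDN4 and CLDN1 overlapped, and CLDN1 was the higher per kilobase. CLDN5, CLDN6 and CLDN8 had no count and CLDN7 had 2. OCLN (occludin) had 7 counts and EPCAM, an adhesion molecule of simple epithelia, 6; these were named after their values were seen.

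The highest integrin transcripts came from a few subunits. ITGB5 had 530.3, 474 and 449 CPM, ITGA3, the laminin-binding alpha subunit, 267, 266 and 255 CPM, ITGB1 195, 196 and 204 CPM and ITGAV 159, 168 and 156 CPM. Of 26 subunits 14 (53.8%) were expressed and 12 (46.2%) silent, near the 55.2% and 39.4% of all protein-coding genes. The silent ones included ITGA4, ITGA8 and ITGA9 with no count and ITGA7 with 1. Of the subunits best known from leukocytes, ITGAD, ITGAL, ITGAM and ITGB2 had no count and ITGAX had 1, whereas ITGAE had 48.6 ± 8.98 CPM and ITGB7 1.02 ± 0.425 CPM, both called expressed. The 3′ end of ITGB7 lies wholly under exons on the opposite strand, so its few counts may include reads of another gene. The 4 leading subunits moved little between libraries, with SDs of 41.5 CPM or less. Among other adhesion molecules, 27 of 39 were expressed, led by ALCAM at 509, 516 and 514 CPM, the tetraspanins CD81 at 508 ± 39 CPM and CD151 at 329 ± 33.9 CPM, and CADM1 at 316 ± 40.1 CPM. NCAM2 and GPC5 had no count, ICAM2 had none and ICAM5 had 3.

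Receptor tyrosine kinase transcripts were led by 4 genes. Of 54, 22 (40.7%) were expressed and 25 silent, and 4 (7.41%) reached 100 CPM, against 55.2% expressed and 8.83% at 100 CPM or more among protein-coding genes. EGFR (ENSG00000146648, chromosome 7, 55019017 to 55211628) had 439, 270.0 and 262 CPM, MET, the receptor of hepatocyte growth factor, 306, 279 and 295 CPM, AXL, the receptor of GAS6, 303, 251 and 293 CPM and EPHA2, an ephrin receptor, 123, 173 and 189 CPM. EGFR was highest in replicate 1 and EPHA2 lowest there, while MET and AXL stayed close. FGFR1 came next at 73.8 ± 12.9 CPM, IGF1R at 57.2 ± 9.09 CPM and ERBB2 at 54.4 ± 8.83 CPM. Per kilobase FGFR4 exceeded FGFR1. ERBB3 and ERBB4 had 1 and 0 counts, MST1R, the paralog of MET, had none, and PDGFRA had 2. The VEGF receptors KDR, FLT4 and FLT1 had 0, 0 and 3 counts.

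The insulin receptor gene INSR had no count in the parental libraries and 17 in the other 9, with no shared end, while its paralog IGF1R had 65.5, 58.6 and 47.5 CPM. Their promoter windows are shown to set this pair beside the ones above, since both windows are rich in CpG, again with CpGs in capitals. IGF1R lies at chr15:98648289-98648588, plus strand, and INSR at chr19:7294365-7294664, minus strand.
IGF1R: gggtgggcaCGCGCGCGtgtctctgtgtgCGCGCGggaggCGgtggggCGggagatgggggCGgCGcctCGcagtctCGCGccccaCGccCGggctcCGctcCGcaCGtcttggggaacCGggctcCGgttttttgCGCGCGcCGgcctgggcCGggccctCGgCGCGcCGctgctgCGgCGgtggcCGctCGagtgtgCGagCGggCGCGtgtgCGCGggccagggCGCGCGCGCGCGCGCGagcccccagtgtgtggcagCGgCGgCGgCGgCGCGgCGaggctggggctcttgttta
INSR: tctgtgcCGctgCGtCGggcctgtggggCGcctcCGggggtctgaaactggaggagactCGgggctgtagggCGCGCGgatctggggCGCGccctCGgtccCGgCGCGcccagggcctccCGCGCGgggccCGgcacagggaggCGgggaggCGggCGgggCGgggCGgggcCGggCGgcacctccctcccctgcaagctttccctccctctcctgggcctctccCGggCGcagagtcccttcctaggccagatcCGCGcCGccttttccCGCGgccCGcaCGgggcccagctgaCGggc

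The IGF1R window holds 55 CpGs and the INSR window 36, more than in 99.6% and 88.1% of the 22114 promoters. The HIF core defined above occurred 5 times in IGF1R and not in INSR.

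Other surface receptors filled in a similar pattern of one or a few leaders. TGF-beta and BMP receptors were modest, with 9 of 14 expressed and none at 100 CPM; BMPR2 averaged 95.6 ± 19.6 CPM, TGFBR2 71.1 ± 20.2 CPM, TGFBR1 41.9 ± 5.07 CPM and ACVR1 36.5 ± 5.08 CPM, and ENG and TGFBR3 had 1 and 2 counts. FZD6 led the Wnt receptors at 188, 168 and 182 CPM and NOTCH2 the Notch receptors at 127, 135 and 129 CPM, followed by FZD7 at 59.1 ± 1.74 CPM and FZD8 at 78.7, 44.1 and 27.5 CPM. NOTCH3, FZD9, FZD10 and LGR5 had no count. In the cytokine and death receptor list 29 of 45 (64.4%) were expressed, beside 55.2% of all protein-coding genes. The list was led by TNFRSF12A, the TWEAK receptor, at 352, 511 and 484 CPM and OSMR, the oncostatin M receptor, at 327, 222 and 134 CPM. LTBR followed at 206 ± 18.9 CPM and TNFRSF1A at 157 ± 25.4 CPM. Both interferon-gamma receptor chains were present, IFNGR2 at 61.7 ± 5.51 CPM and IFNGR1 at 33.4 ± 10.2 CPM. IL2RA had no count, nor had IL10RA; IL2RB had none and IL2RG, with a partly shared end, had none.

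Receptors coupled to G proteins were low throughout. Of 40, 16 were expressed, none reached 100 CPM and 23 were silent. LPAR1, a lysophosphatidic acid receptor, averaged 32.3 ± 1.82 CPM, F2R, the thrombin receptor, 26.5 ± 5.72 CPM, S1PR1 22.3 ± 7.4 CPM and ADORA1 21.4 ± 9.07 CPM. LPAR3, F2RL3, S1PR4 and LPAR5 had no count. Both endothelin receptors, EDNRA and EDNRB, had none although their ligand EDN1 had 194, 326 and 237 CPM. Among nuclear receptors 22 of 36 (61.1%) were expressed, near the 55.2% of all protein-coding genes. NR3C1, the glucocorticoid receptor, had 709, 579 and 542 CPM and held 99.7% ± 0.117 of the CPM of 6 steroid receptor genes. NR2F2 followed at 192 ± 34.5 CPM, NR2F6 at 115 ± 12.8 CPM and RXRA at 56.8 ± 9.43 CPM. ESR1, ESR2 and PGR had no count.

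Secreted growth factors of the vessel were led by the HIF targets. VEGFA (ENSG00000112715, chromosome 6, 43770184 to 43786487) had 456, 241 and 241 CPM, EDN1 (endothelin-1) the values above, ADM 379.5, 179 and 138 CPM and VEGFB 177, 122 and 80.9 CPM. VEGFA without replicate 1 averaged 240.7 CPM, against 313 CPM with it. Per kilobase VEGFB exceeded VEGFA. PDGFC averaged 98.8 ± 12.6 CPM and PDGFB 69.6 ± 6.54 CPM. VEGFD, ANGPT1 and ANGPT4 had no count and ANGPT2 had 1, so no angiopoietin was expressed.

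Ligands of the receptors above were partly present. TGFA, an EGFR ligand, had 579, 316 and 286 CPM, GDF15 419, 276 and 187 CPM, EREG, another EGFR ligand, 62.7, 119 and 117 CPM and GAS6, the ligand of AXL, 108, 91.9 and 77.3 CPM. HGF, the ligand of MET, was at 1.81 ± 0.614 CPM. BTC had 1 count, and EPGN, NRG2 and NRG3 had none. IGF1 had 2 counts and IGF2, with a shared end, had none. FSTL1, a follistatin-like protein, was the highest of the TGF-beta, BMP and Wnt list at 2199, 2316 and 2332 CPM, then INHBB at 257 ± 62.3 CPM, FSTL3 at 138 ± 11.3 CPM and INHBA at 61.7, 119 and 229 CPM; INHBB and INHBA encode the beta subunits of activins. INHA had 1 count, BMP4 had 2 and BMP5 and BMP7 had none. Of all Wnt ligands listed, WNT5A was highest at 16.6 ± 3.59 CPM and WNT1, WNT2, WNT3 and WNT3A had no count.

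Cytokines and chemokines were expressed in 19 of 40 cases (47.5%), beside 55.2% of all protein-coding genes, and several varied between libraries. IL32 had 126, 172 and 203 CPM, CXCL8, the neutrophil chemokine interleukin-8, 43.7, 124 and 256 CPM, CSF1 75.9, 61.9 and 89.1 CPM and LIF 58.6, 64.7 and 78.1 CPM. CXCL8 was highest in replicate 3 and lowest in replicate 1, and its mean of 141 CPM was 189.8 CPM without replicate 1 and 83.7 CPM without replicate 3. IL6 was at 8.13 ± 6.08 CPM, CCL2 at 3.98 ± 2.58 CPM, and IL1A, IL1B, IL10 and IL12A had no count. Of the binding proteins for insulin-like growth factors IGFBP3 came first with the values above and IGFBP7 second at 588, 450.1 and 442 CPM, then IGFBP6 at 43.9 ± 9.71 CPM and IGFBP5 at 26.9 ± 2.88 CPM. IGFBP1 had 2 counts, against 118 in the libraries of the derived lines.

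Laminins and matrix glycoproteins had the largest summed level of the secreted lists, 7593, 7981 and 7790 CPM. Of these 49 genes 26 (53.1%) were expressed, beside 55.2% of all protein-coding genes. TGFBI, a matrix protein that binds integrins, had 3379, 3017 and 2744 CPM (rank 32), CCN1, a matricellular protein and known YAP target, 700.1, 1795 and 1882 CPM, SPARC 1073, 905 and 817 CPM and VCAN (versican) 558, 662 and 659 CPM. CCN1 was lowest in replicate 1, where TGFBI and SPARC were highest. Laminin transcripts came from LAMB1 at 209 ± 19.9 CPM, LAMC1 at 124 ± 10.6 CPM and LAMA3 at 54.6 ± 18.2 CPM, and the silent members included LAMA1, LAMA2 and LAMA4 with 2, 3 and 3 counts and LAMB4 with none. Collagens were led by the basement membrane chains COL4A1 at 356, 280.3 and 284 CPM and COL4A2 at 148 ± 14.7 CPM, with COL8A1 at 268 ± 15.2 CPM and COL18A1 at 253 ± 38.3 CPM between them. The fibrillar chains were low, COL1A2 at 17.9 ± 5.55 CPM, COL1A1 at 6.2 ± 0.868 CPM and COL3A1 at 2.84 ± 1.19 CPM, and COL2A1 had no count. Proteases and inhibitors were expressed in 32 of 48 cases (66.7%), beside 55.2% of all protein-coding genes. The expressed ones included CTSD (cathepsin D), with a partly shared end, at 861 ± 107 CPM, ADAM9 at 396 ± 79.7 CPM and LOXL2, the leading lysyl oxidase, at 480.4, 361 and 340.5 CPM. MMP3, MMP8, MMP10 and MMP11 had no count, and the highest matrix metalloproteinase genes were MMP24 at 98.8 ± 16.7 CPM and MMP14 at 73.3 ± 27 CPM.

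The question of silent paralogs was put to 92 gene families with 445 members. In 89 families the highest member was expressed, in 81 it held more than 50% of the family's CPM and in 37 more than 90%. In 77 the lowest library of the leader exceeded the highest of the second member. The leader was chosen by these same values, so its share and its distance from the second member are descriptions only. Where a family is a pair, the leader holds at least 50% by definition. Per kilobase of exon 81 of the 89 leaders stayed first, and 8 gave way to the second member: P4HA2 to P4HA1, SLC16A3 to SLC16A1, CLDN4 to CLDN1, FGFR1 to FGFR4, VEGFA to VEGFB, PDGFC to PDGFB, EFEMP2 to EFEMP1 and ANXA2 to ANXA5. The fructose bisphosphatases, VEGF receptors and angiopoietins had no expressed member.

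Of the 445 members 229 were expressed and 182 (in 69 families) were silent. Among all protein-coding genes 55.2% were expressed and 39.4% silent, so silence was about as common in these families as elsewhere. Only 4 of the silent ones have a shared 3′ end, EGLN1, EGLN2, GYS2 and CPT1B. Some 128 of the 182 also had at most 3 counts in the other 9 libraries, and 54 had more. The largest such counts were 197 for SCD5, 165 for GATA3, 118 for IGFBP1, 113 for ITGA4 and 78 for ACSL5, so the assay could count these genes. Others of the 54 had few, such as CA4 with 4, KDR with 7 and EGLN1, with its shared end, 9, too few to show this. Leaders whose relatives were all silent or absent included MET, GAPDH, PKM and COX4I1, the common subunit of cytochrome oxidase at 558 ± 28.2 CPM, whose HIF-inducible paralog COX4I2 had no count. Less lopsided families were the annexins, where ANXA2 (856 ± 126 CPM) held 30.3% ± 1.40, the glypicans, where GPC6 (103 ± 29.8 CPM) held 41.3% ± 5.61, and the caveolins, where CAV2 stood at 528 ± 66.8 CPM beside CAV1.

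**Figure D4:**
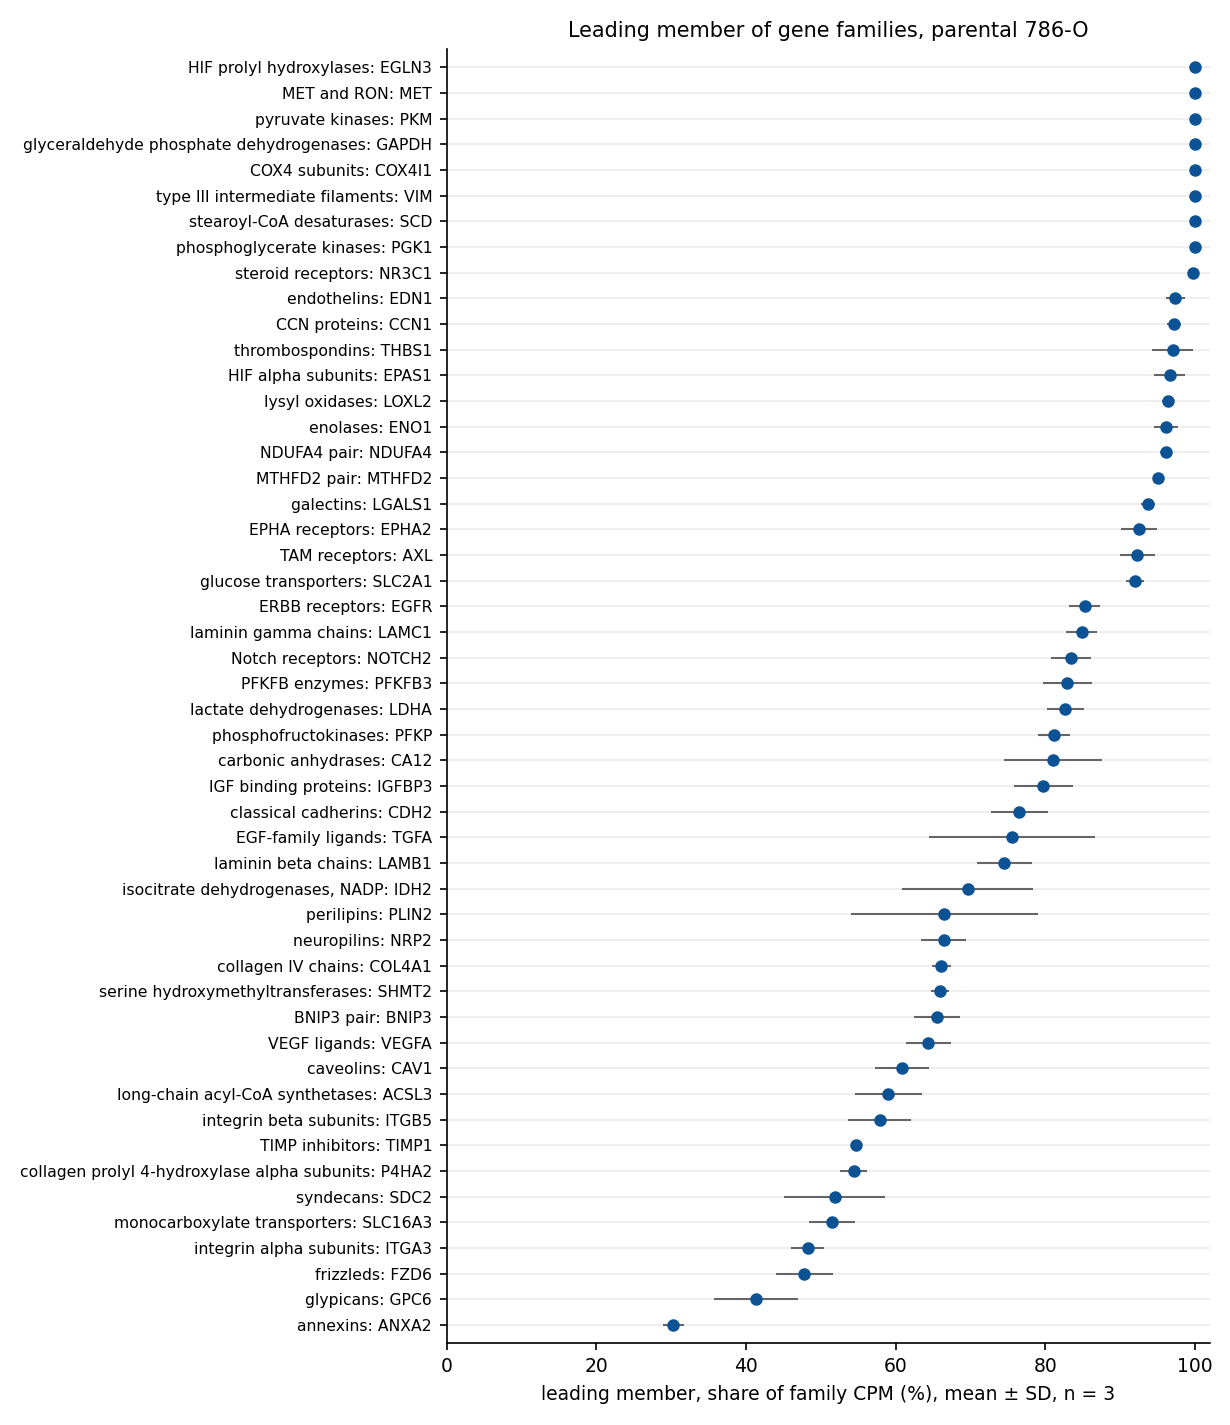
Share of a family's summed CPM held by its leading member in the parental libraries, mean ± SD over 3 libraries, for 50 of the families whose leader reached 100 CPM. The first rows, MET to NR3C1, are above 99%, and the annexins at 30.3% are lowest; the EGLN3 share rests on paralogs with shared 3′ ends.

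The genes targeted by the shRNAs of the other lines were all expressed in parental cells: JUND at 308, 385 and 364 CPM, WWTR1 at 237, 321 and 366 CPM, JUNB at 96.4, 209.8 and 264 CPM, JUN at 136, 169.8 and 149 CPM and YAP1 at 66.2, 57.4 and 70.8 CPM, beside EPAS1 above. JUNB was the most uneven of them, with replicate 1 lowest.

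The 3 technical replicates differed in many of the listed genes. Among 3535 genes of at least 50 CPM the median coefficient of variation (CV, the SD as a share of the mean) was 13.5%, and 83 genes exceeded 40%. The 12 most variable were FUT11, CXCL8, G0S2, INHBA, DHX9, DIP2C, TFRC, ID1, SLC2A3, STC1, ADM and PMM1. FUT11, a fucosyltransferase, had 105, 31.6 and 30.1 CPM, DIP2C 111, 53.8 and 32.6 CPM, STC1 (stanniocalcin-1) 116, 49.1 and 45.2 CPM and PMM1 132, 66 and 46.1 CPM, each highest in replicate 1. The opposite held for G0S2, a regulator of lipolysis, at 26.7, 51.6 and 113 CPM, DHX9, a helicase, at 29.8, 101 and 139.6 CPM, TFRC, the transferrin receptor, at 34, 140.4 and 165 CPM and ID1 at 57.5, 155 and 234 CPM, each lowest in replicate 1. Of the 60 most variable genes 33 were highest in replicate 1, 26 in replicate 3 and 1 in replicate 2.

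Several lists leaned towards replicate 1, the HIF targets among them. Of the 41 HIF targets at 10 CPM or more, 30 (73.2%) were highest in replicate 1, 8 in replicate 2 and 3 in replicate 3, where 38.4% of all 8635 genes at that level were highest in replicate 1. The summed level of all 51 was 18108 CPM in replicate 1, 13702 in replicate 2 and 12161 in replicate 3. EPAS1 was highest in replicate 1 too, and averaged 169.6 CPM without it, and PLIN2 averaged 430.0 CPM without it. Other lists with a larger share than 38.4% highest in replicate 1 included the receptor tyrosine kinases (11 of 17), the cytokine and death receptors (13 of 21), the nuclear receptors (10 of 17), the matrix proteases and inhibitors (14 of 25) and the insulin-like growth factor binding proteins (3 of 4). Cytokines leaned the other way: 6 of the 8 at 10 CPM or more were highest in replicate 3, where 34.6% of all genes at that level were, and the list summed to 423, 611 and 832 CPM. Citrate cycle genes, 33 at that level, were highest in replicate 3 in 18 cases (54.5%), set beside the same 34.6%. Replicate 1 also had the fewest counts and the largest mitochondrial share, 7.64%, against 7.29% and 6.91%, and the part of either in these differences was not tested.

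**Figure D5:**
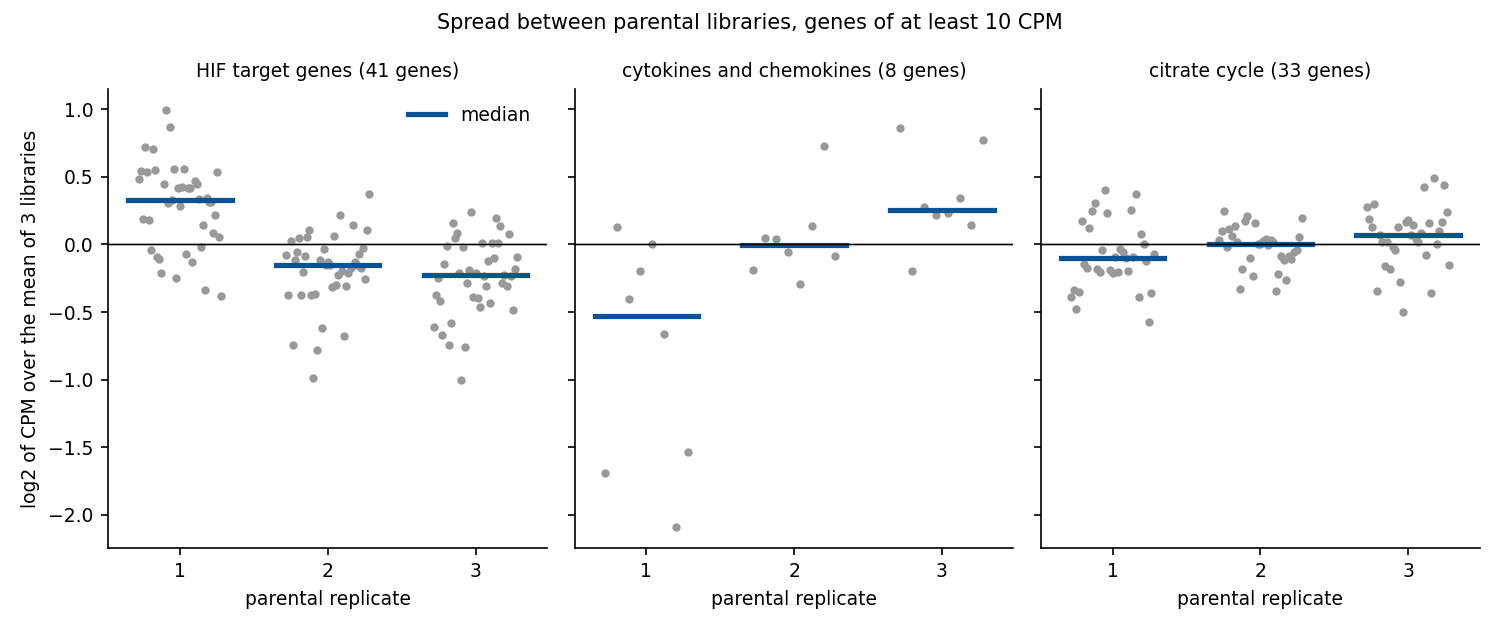
Log2 of each library's CPM over the mean of the 3 libraries, for genes of at least 10 CPM in 3 lists; grey points are genes and blue bars are medians in each replicate. HIF targets sit above 0 mainly in replicate 1 (30 of 41 are highest there) and cytokines below 0 in that replicate.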

How the data were processed

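RNA of 12 libraries of 786-O was measured by BRB-seq, and the 3 parental libraries are described here. The authors deposited raw counts per gene in 1 table, made with Trim Galore and STAR on hg38 per the submitters' processing notes; no source used here names their versions, the counting program, its strand setting, the annotation release or the use of molecular identifiers, and per the file headers the table has the layout that featureCounts writes. Of 62705 lines, 3 held 1 broken gene, which was left out; the remaining 62702 genes include 62624 with a symbol from a table of gene IDs. Gene types came from GENCODE release 29 and coordinates from the deposited table.

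CPM were counts divided by the library total, computed with pandas 2.3.3 and numpy 2.4.6 in Python 3.11.15. TMM factors (edgeR 4.0.16, R 4.3.3) served only as an alternative scaling, and no test was made. The calculation was tested on simulated data. Floors cover counting error only. Expressed, trace and silent were defined as in the report (at least 1 CPM, at most 3 counts). A 3′ end was called shared when at least 10% of its last 1000 exonic bases lay in exons of another gene on the same strand. Alternatives were leaving out each library, TMM, other thresholds, levels per kilobase, and the set of genes without a shared end.

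The 40 gene lists (1014 genes) and 92 families were chosen with earlier results of these data known. Named were the 15 highest genes, the 4 highest and up to 4 silent members of each list, the leading, second and silent members of families, the HIF and VHL genes, the shRNA targets, and the 12 genes of at least 50 CPM with the largest CV. Other genes named in the text were chosen after their values were seen. Some genes that this rule selects are not reported here, though counts and sums over lists and families include them. The replicates are technical per the labels.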

Additional observations from a re-analysis of the deposited data

How the results depend on the processing

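Across the alternatives the number of expressed genes lay between 10075 (at least 10 counts in each library) and 13053 (a mean of at least 0.5 CPM), and 12774 to 12898 without any one parental library. Silent genes numbered 42492, when genes with a shared 3′ end were left out, to 49650, when up to 10 counts were allowed. Of the genes in the lists 538 were expressed, 534 to 552 without any one library. Of the 1000 highest genes 999 were shared under TMM scaling, 961 to 981 without any one library and 684 per kilobase of exon. The 89 leading family members were kept in 88 or 89 families without any one library and in 81 per kilobase. The 100 highest genes took 31.5% of the counts, and 27.4% when the mitochondrial genome was left out. The count of 83 variable genes among 3535 was the least stable: it was 822 with a mean of at least 10 CPM, which also enlarged the pool to 8635 genes, 75 under TMM scaling, and between 15 (without replicate 1) and 249 (without replicate 2) when a library was left out, 145 without replicate 3. The alternatives with a shared end, the ranks and variable genes without a library, and all alternatives for single genes and for the share of HIF targets highest in replicate 1 were chosen after seeing the data. That share was 70.4% to 73.2%. The means of 22 genes were at most 1.01 times their value under TMM scaling and 0.593 to 1.35 times without any one library, and 1 of them, CXCL8 without replicate 3 (83.7 CPM), moved by over 1.5 times. No paired analysis was possible because only 1 group is described and no test was made. Depth limits what silence means: genes below about 0.299 CPM cannot be told from absent ones.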

Other observations

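Outside the lists and apart from ribosomal and mitochondrial genes, the highest protein-coding genes of parental 786-O had varied roles, and some are given here. These genes were named because they were highest, after their values were seen. ACTB and ACTG1, the cytoplasmic actins, averaged 3538 ± 1403 and 3287 ± 393 CPM, and ACTB had 1984, 3920 and 4711 CPM in replicates 1 to 3. TUBA1B averaged 2492 ± 635 CPM and PFN1 (profilin) 2065 ± 480.0 CPM, and ACTB, TUBA1B and PFN1 were each lowest in replicate 1. FTH1, the ferritin heavy chain, averaged 2813 ± 35.2 CPM and S100A6 3189 ± 130.2 CPM. AKR1B1, an aldose reductase, stood at 2864 ± 465 CPM (rank 33) and UCHL1, a ubiquitin hydrolase best known from neurons, at 1569.6 ± 271 CPM (rank 69). TNFSF10, which encodes the death ligand TRAIL, had 1820.3, 1029 and 865 CPM, and its receptor TNFRSF10B averaged 80.2 ± 20.6 CPM.

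The highest long noncoding RNAs were SNHG6 at 1104 ± 107 CPM, SNHG29 at 752 ± 29.7 CPM and MALAT1 at 581 ± 90.9 CPM. SNHG6 overlaps other exons on the opposite strand over all of its last 1000 exonic bases. SNHG7 had 633, 338 and 269 CPM and NEAT1 300.5, 154.6 and 157.3 CPM, both highest in replicate 1, whereas CRNDE stayed at 158.4, 156.0 and 153.1 CPM.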
